A study of Rattus norvegicus with 32 samples.

Results

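Cytochrome P450 genes of families 1 to 4 were described in the liver and small intestine of lactating and virgin rats. The genes were those whose symbol starts with Cyp1 to Cyp4 and that had an array transcript cluster annotated to 1 gene symbol. This gave 34 genes of 13222 with such a symbol, 3 in family 1, 18 in family 2, 4 in family 3 and 9 in family 4. Each had 1 cluster. Another 11 clusters that list a gene of these families beside other symbols were not named and not used. Total RNA came from Sprague-Dawley rats on day 10 to 11 of lactation, with litters evened out after birth, and from age-matched virgin controls. All were killed at hour 16 and carried no genetic change or drug treatment. Each control or lactating pool held RNA of 4 rats, the same 4 in each tissue, so that liver, duodenum, jejunum and ileum each had 4 control and 4 lactating pools, or 32 arrays. The sample labels call the material homogenates of whole tissue, whereas the study's methods describe scraped mucosa for the intestinal segments. A pool mixes animals, so the spread between pools is not the spread between rats. In such material, fewer cells of a type and less RNA per cell cannot be told apart.

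Cytochrome P450 enzymes are haem proteins of the endoplasmic reticulum that insert an oxygen atom into fatty acids, steroids, vitamins, drugs and dietary or environmental chemicals, with electrons handed over by P450 oxidoreductase. The liver carries most of this activity, and the enterocyte carries the first barrier against swallowed chemicals. Family 1 genes are induced through the aryl hydrocarbon receptor, many genes of families 2 and 3 through the pregnane X receptor and the constitutive androstane receptor, and family 4A through Ppara. In the rat, several hepatic forms of subfamilies 2C and 3A also depend on sex, through the pattern of growth hormone release.

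Values are log2 RMA summaries, which were compared only within a gene and not between genes. Array medians ran from 4.68 to 4.87, and values from 0.82 to 14.41. Differences are given on the log2 scale ± SE with n = 4 pools per group, from a limma fit to all 32 arrays. That fit gives each gene 1 spread shared by its 8 groups, so an SE is not the spread of 1 tissue's pools alone. A gene was called at a Benjamini-Hochberg adjusted p under 0.05 over 19434 clusters. The 8 hepatocyte markers had group means of 12.40 to 13.95 in the liver. In the intestine 7 of them lay between 2.92 and 5.94, and Cps1, a urea cycle enzyme that enterocytes also make, between 10.77 and 11.86. The 6 enterocyte markers measured summed on the log2 scale to 14.52 to 15.46 in the intestine and 8.23 to 9.21 in the liver. Between states, no enterocyte, T cell (4 measured) or smooth muscle (6 measured) marker was called in any tissue. In the fit blocked on the replicate number, Lct, Cd8b and Myh11 were called in 1 segment each and are given there. Of the hepatocyte markers, Alb fell by 0.53 and Ttr rose by 0.74 in the jejunum. The adipocyte (7 measured) and pancreatic acinar markers called are given beside the segments they concern.

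In control rats the P450 genes divided between liver and intestine. Of the 34, 20 were higher in the liver than in the mean of the 3 segments and 8 were lower, together 82.4% of the members, against 46.3% of all clusters (22.7% higher and 23.6% lower). The median size of the liver minus intestine difference, without its sign, was 3.19 for the P450 genes and 0.27 for all clusters. With a mean of 6 or more taken as a clear signal, 12 genes reached it in the control liver and in no control segment, 10 in the liver and in at least 1 segment, and 2, Cyp1a1 and Cyp4f5, only in segments. The remaining 10, Cyp1b1, Cyp2a3, Cyp2b21, Cyp2c11, Cyp2c13, Cyp2g1, Cyp3a2, Cyp4a8-ps1, Cyp4f18 and Cyp4x1, stayed under 6 in all 8 groups, with group means of 2.03 to 4.71, and small differences among them are differences between dim signals.

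**Figure D1:**
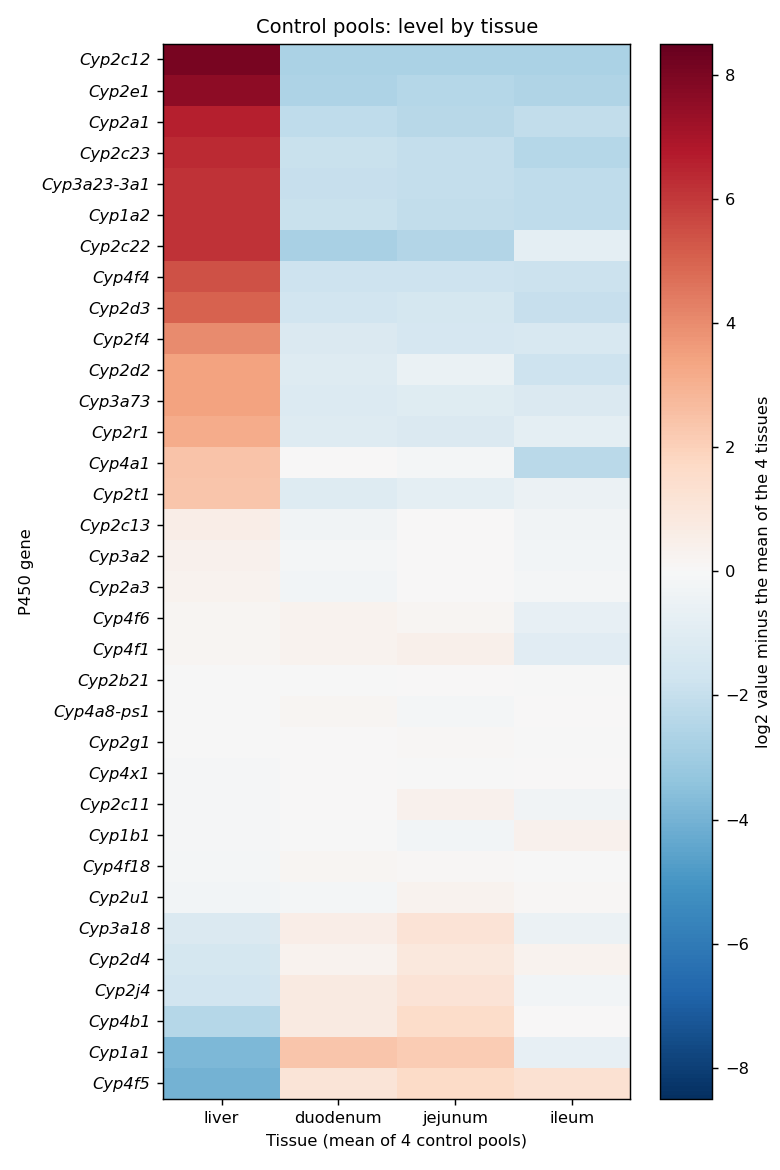
Mean log2 value of the 4 control pools in each tissue (columns) for the 34 P450 genes (rows), minus the gene's mean over the 4 tissues, as colour, with genes ordered by liver minus intestine. Cyp2c12 at the top measured 10.77 higher in the liver than in the segments, a lower bound, and Cyp4f5 at the bottom 5.40 lower.

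The 5 largest measured differences were those of Cyp2c12, Cyp2e1, Cyp2a1, Cyp2c23 and Cyp3a23-3a1. Their control means in the segments lay between 1.86 and 4.76, about or under the array medians. Against segments with so little signal a liver excess is a lower bound, here and for the other genes that were at 6 or more in the liver alone, and the order of such bounds is not an order of the genes. Cyp2e1, the ethanol-oxidizing form, stood at 13.03, 13.01, 13.12 and 13.30 in control liver pools 1 to 4, against a mean of 2.93 ± 0.21 (SD, n = 4) in the control duodenum. Its measured liver minus intestine difference, such a bound, was 10.11 ± 0.09 (adjusted p = 4.9e-35). Cyp2a1, a testosterone hydroxylase, had a mean of 12.19 ± 0.24 (SD, n = 4) in the control liver and a difference of 8.83 ± 0.09, and Cyp2c23, an arachidonic acid epoxygenase, a mean of 12.99 ± 0.09 (SD, n = 4) and a difference of 8.43 ± 0.09. Cyp1a2, the hepatic member of the Ahr-induced 1A pair, was 8.18 ± 0.10 higher in the liver. The same test gave 7.20 ± 0.11 for Cyp4f4, 6.68 ± 0.10 for Cyp2d3 and 4.18 ± 0.16 for Cyp2r1, a vitamin D hydroxylase.

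The hepatic forms known to depend on sex include a pair of neighbours on chromosome 1. Cyp2c12, the female-predominant form, stood at 12.55, 12.61, 12.64 and 12.82 in control liver pools 1 to 4 and at 12.62, 12.67, 12.61 and 12.62 in the lactating ones. Cyp2c13, a male-predominant form with no protein-coding gene between it and Cyp2c12, stood at 2.96, 3.23, 3.67 and 2.60 in the control liver and at 3.30, 2.61, 2.51 and 2.75 in the lactating liver. For Cyp2c11 and Cyp3a2, also male-predominant, the control liver pools ran from 2.47 to 2.72 and from 2.52 to 3.21. These are not all of the forms that depend on sex, and Cyp3a18, a further 3A form, had a control liver mean of 9.12. None of Cyp2c12, Cyp2c13, Cyp2c11 and Cyp3a2 was called between states. Lactating minus control in the liver was -0.02 ± 0.08 for Cyp2c12 (95% confidence interval -0.19 to 0.14), -0.32 ± 0.17 for Cyp2c13, 0.15 ± 0.15 for Cyp2c11 and 0.26 ± 0.14 for Cyp3a2, with adjusted p values of 0.486 to 0.957. The promoter windows of the neighbouring pair are shown because the female- and the male-predominant form lie side by side. They run 5′ to 3′ from 250 bases before to 50 after the RefSeq start on GRCr8, with every TATAAA match, on either strand, in capitals.
Cyp2c12: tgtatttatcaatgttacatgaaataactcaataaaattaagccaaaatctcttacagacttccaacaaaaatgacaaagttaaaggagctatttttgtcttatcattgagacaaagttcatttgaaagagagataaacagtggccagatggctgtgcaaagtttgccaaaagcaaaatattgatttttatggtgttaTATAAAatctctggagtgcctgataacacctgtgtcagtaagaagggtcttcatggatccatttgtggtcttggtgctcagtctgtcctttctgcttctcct
Cyp2c13: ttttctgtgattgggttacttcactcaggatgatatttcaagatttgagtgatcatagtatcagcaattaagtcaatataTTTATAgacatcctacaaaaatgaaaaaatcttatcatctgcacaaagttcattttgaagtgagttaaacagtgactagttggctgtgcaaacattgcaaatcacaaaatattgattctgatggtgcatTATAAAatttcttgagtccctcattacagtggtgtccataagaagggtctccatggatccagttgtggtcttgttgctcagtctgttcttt
The window of Cyp2c12 is chr1:248676985-248677284 and that of Cyp2c13 is chr1:248787139-248787438, both on the minus strand. The windows were identical at 216 of 270 aligned bases (80.0%). TATAAA occurred once in the Cyp2c12 window, at 52 to 47 bases before the start, and at 2 places in that of Cyp2c13, and it occurred in 14.2% of the 33469 promoter windows of the table. It was found in 9 of the 30 P450 genes that the table matched by symbol. These genes had 36 windows, so the count of genes and the share of windows cannot be set against each other. No window was matched for Cyp1a1, Cyp4a1, Cyp4a8-ps1 and Cyp4f4.

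Fewer genes were lower in the liver than in the intestine, and several were close relatives of liver-high genes. Cyp4f5, a relative of the leukotriene hydroxylases, stood at 5.17, 4.91, 4.93 and 4.52 in control liver pools 1 to 4 and at 10.22, 10.77, 10.60 and 10.75 in the control jejunum, and its liver minus intestine difference was -5.40 ± 0.11 (adjusted p = 1.8e-26). Cyp1a1, the oxidizer of polycyclic aromatic hydrocarbons, followed at -5.10 ± 0.24 (adjusted p = 2.5e-17). Cyp1a1 and Cyp1a2 are direct neighbours on chromosome 8 and lay on opposite sides of this comparison. Cyp4b1, which activates several lung toxins, differed by -3.19 ± 0.15, Cyp2j4, an epoxygenase of the intestine, by -2.20 ± 0.12, and Cyp2d4 by -1.98 ± 0.09. Within subfamily 2D, Cyp2d2 and Cyp2d3 were higher in the liver, by 4.57 ± 0.15 and 6.68 ± 0.10. Within subfamily 3A, Cyp3a18 was 1.66 ± 0.13 lower in the liver whereas Cyp3a23-3a1 and Cyp3a73 were higher there by 8.22 ± 0.07 and 4.53 ± 0.10.

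Along the intestine, 12 members had a control mean of 6 or more in at least 1 segment. The mean was highest in the jejunum for 8 of them, in the duodenum for 3 and in the ileum for 1, and it was lowest in the ileum for 9. Between control jejunum and ileum, 12 members were higher in the jejunum and 2 in the ileum, which is 41.2% of the members against 26.1% of all clusters. The direction was the reverse of that of the whole array, where 7.89% of clusters were called higher in the jejunum and 18.2% lower. Of the 12 called higher in the jejunum, Cyp2c11, Cyp2c23 and Cyp2d3 had all control segments under 6. Cyp2t1, Cyp2u1 and Cyp4f5, among the 12 members at 6 or more in a segment, were not called here. Cyp1a1 stood at 9.79, 9.92, 10.52 and 10.01 in control jejunum pools 1 to 4 and at 7.43, 7.58, 6.53 and 7.43 in the ileum, a difference of 2.82 ± 0.29 (adjusted p = 2.1e-08). Cyp4a1, a fatty acid omega-hydroxylase and classical Ppara target, was higher in the jejunum by 2.12 ± 0.17 and Cyp3a18 by 1.65 ± 0.16. The differences were 1.52 ± 0.19 for Cyp4b1, 1.40 ± 0.14 for Cyp2j4, 1.40 ± 0.12 for Cyp4f1 and 1.24 ± 0.18 for Cyp2d2. The exceptions were Cyp2c22, a retinoic acid hydroxylase of rat liver, at -1.66 ± 0.19, and Cyp1b1, which metabolizes estradiol, at -0.56 ± 0.17, both with all segments under 6. Between duodenum and jejunum 6 members were called (17.6% against 13.1% of all clusters), all lower in the duodenum, where 6.77% of all clusters were called lower. These were Cyp4b1 (-0.77 ± 0.19), Cyp2d4 (-0.60 ± 0.11), Cyp3a18 (-0.58 ± 0.16), Cyp2d2 (-0.57 ± 0.18), Cyp4f5 (-0.57 ± 0.13) and Cyp2u1 (-0.48 ± 0.14). Without control pool 2 only 2 members were called, and 1758 of all clusters against 2540 with it. Control ileum pool 3 was the lowest of the 4 control ileum pools for 10 of the 12 genes that were higher in the jejunum, and for 35.6% of all 1533 clusters called in that direction. Without control pool 3, 12 members were still called between jejunum and ileum, and 4055 of all clusters against 5078 with it.

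**Figure D2:**
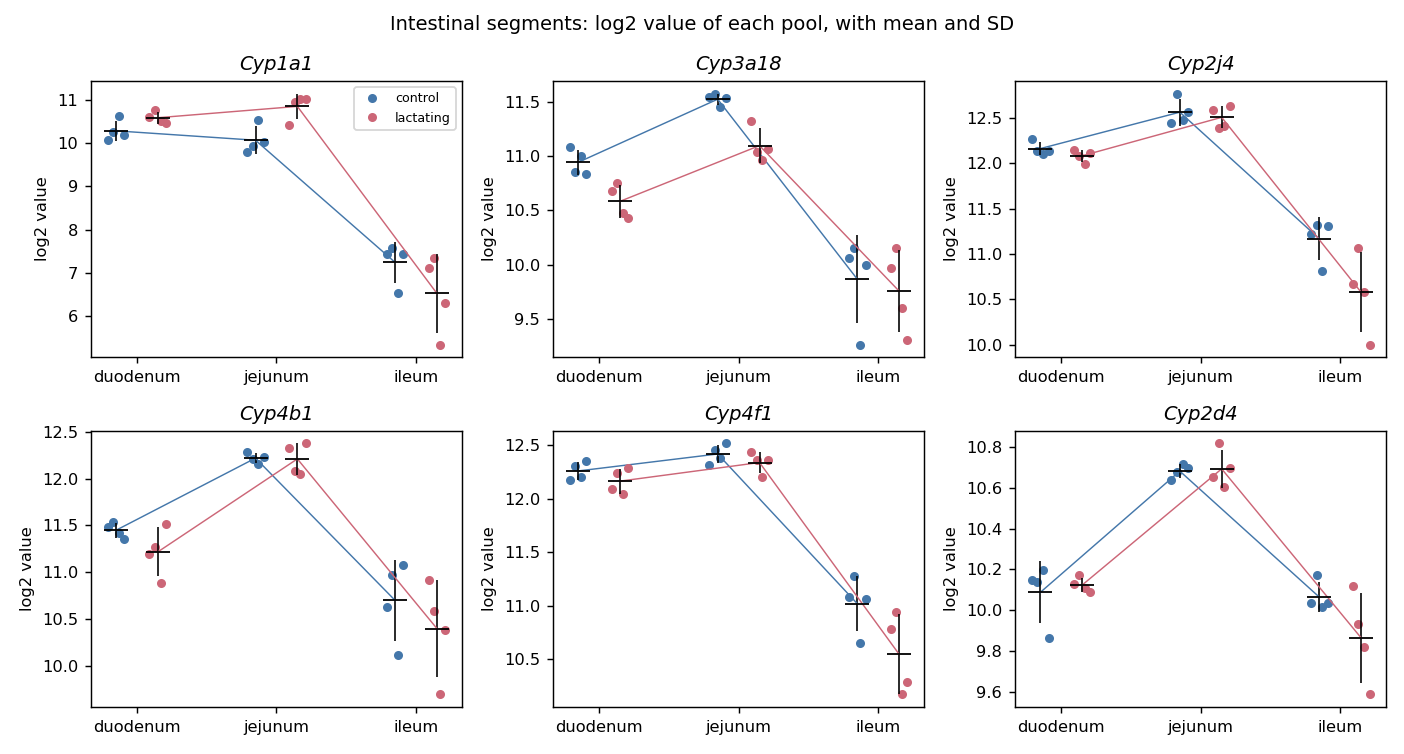
Log2 value of each pool (points) in the 3 intestinal segments for 6 P450 genes, control in blue and lactating in red, with black bars for mean ± SD and lines joining the means. The mean of each gene is lowest in the ileum in both states, and control ileum pool 3 is the lowest control point there for all 6 genes.

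Lactation moved few of the 34 genes, and each of the 6 genes called was called in 1 tissue. The test of lactating against control pools called 3 members in the liver (8.82% against 1.88% of all clusters), 1 in the duodenum (2.94% against 0.643%), 0 in the jejunum (0.808% of all clusters) and 2 in the ileum (5.88% against 1.28%). The liver calls were 2 rises (0.715% of all clusters rose) and 1 fall (1.17% fell), and the other 3 calls were falls (0.278% of all clusters fell in the duodenum and 0.803% in the ileum). The median difference of the members was -0.01, -0.05, 0.02 and -0.05 in these tissues, and that of all clusters 0.01, 0.04, 0.01 and 0.02. The 31 members not called in the liver lay between -0.33 and 0.44, and those not called in the duodenum between -0.37 and 0.34. Members whose lactating and control pools did not overlap numbered 5 in the liver (14.7% against 5.21% of all clusters), 3 in the duodenum (8.82% against 5.78%), 4 in the jejunum (11.8% against 5.37%) and 3 in the ileum (8.82% against 7.51%). Some of these had both group means under 6 and so were dim. They were Cyp1a1 in the liver, Cyp2c23 in the duodenum, Cyp2d3 in the jejunum, and Cyp2a1 and Cyp2c11 in the ileum.

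**Figure D3:**
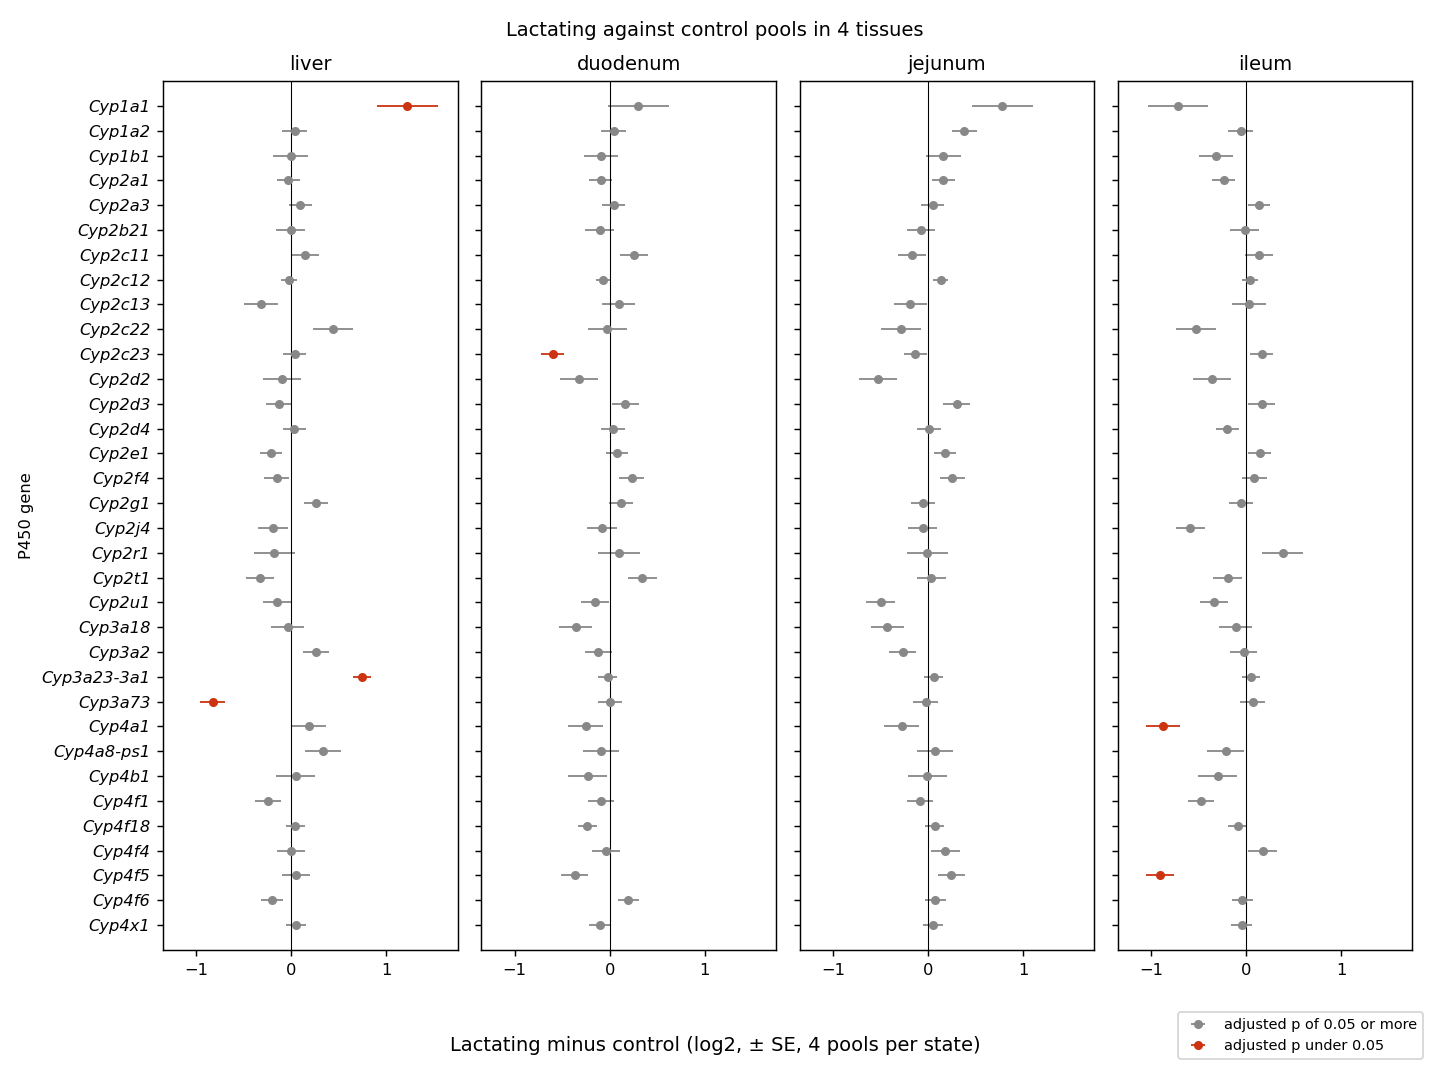
Lactating minus control difference on the log2 scale (points, bars ± SE, 4 pools per state) for the 34 P450 genes in each of 4 tissues, red where the adjusted p was under 0.05. The 6 red points are Cyp1a1, Cyp3a23-3a1 and Cyp3a73 in the liver, Cyp2c23 in the duodenum, and Cyp4a1 and Cyp4f5 in the ileum.

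In the liver Cyp1a1 rose from a level under the array medians. The control liver pools 1 to 4 stood at 4.12, 4.30, 4.50 and 3.44 and the lactating pools at 5.73, 4.94, 5.18 and 5.38. Every lactating pool lay above every control pool, and above the array medians, while the control pools lay below them. The difference was 1.22 ± 0.32 (95% confidence interval 0.56 to 1.88, a 2.33-fold rise, limma adjusted p = 0.0419). In the other tissues Cyp1a1 differed by 0.30 ± 0.32 in the duodenum, by 0.78 ± 0.32 in the jejunum and by -0.72 ± 0.32 in the ileum, none of them called (adjusted p = 0.876, 0.338 and 0.375). RT-PCR in the study, on the same RNA, gave rises of Cyp1a1 in liver and jejunum, of which only that in the jejunum was significant. The difference between the tissues was called in limma's F test (adjusted p = 0.0323) and missed the threshold once the replicate number was a term (0.0595). Cyp1a2, its neighbour, differed in the liver by 0.03 ± 0.13 (95% confidence interval -0.24 to 0.31). The Cyp1a1 call in the liver was lost without control pool 1, 2 or 4 (adjusted p = 0.0723, 0.109 and 0.208), without lactating pool 1 or 4 (0.128 and 0.0928), without both pools numbered 4 (0.296), in the study's mixed model (0.0531), with array weights (0.119), among clusters with a group mean of 6 or more (0.0509) and in a fit to the liver arrays alone (0.129). The F test was lost without control pool 1, 2 or 4 (0.122, 0.167 and 0.184) and without lactating pool 3 or 4 (0.147 and 0.181), and also without both pools numbered 4 (0.479), in the mixed model (0.111), with array weights (0.0717) and without the pool block (0.0639).

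Subfamily 3A, the main drug-oxidizing P450 group, moved both ways in the liver. Cyp3a23-3a1, an inducible form, stood at 10.40, 10.51, 10.43 and 10.39 in control pools 1 to 4 and at 11.24, 11.26, 11.33 and 10.88 in lactating pools. The lactating pools all lay above the control pools, which differed among themselves by little. The rise was 0.74 ± 0.10 (1.68-fold, adjusted p = 2.07e-05). RT-PCR in the study also gave a rise in the liver, which was not significant. Cyp3a73 stood at 6.69, 6.53, 6.98 and 6.50 in control pools and at 5.42, 6.18, 5.84 and 5.95 in lactating pools, again with no overlap. It fell by 0.83 ± 0.13, a 1.77-fold fall (adjusted p = 0.000246). The SD was 0.22 in control and 0.32 in lactating liver pools, against 0.07 to 0.17 in the segments, which share in that SE. Cyp3a18 differed by -0.04 ± 0.17 and Cyp3a2 by 0.26 ± 0.14, neither called. In the 3 segments Cyp3a23-3a1 lay between 2.04 and 2.56 and Cyp3a73 between 1.98 and 2.46 in every array, so that a lactation effect could be measured only in the liver and the F test between tissues says nothing beyond the liver call. Both calls in the liver held when any 1 pool was left out, and both were lost in a fit to the liver arrays alone (0.0584 and 0.167).

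The promoter windows of Cyp3a23-3a1 and of Cyp3a2, its direct neighbour on chromosome 12, are shown because they carry a direct repeat of the kind the pregnane X receptor binds. Capitals mark the match to AGTTCA, any 3 bases, then AGTTCA again, which here lies on the reverse strand.
Cyp3a23-3a1: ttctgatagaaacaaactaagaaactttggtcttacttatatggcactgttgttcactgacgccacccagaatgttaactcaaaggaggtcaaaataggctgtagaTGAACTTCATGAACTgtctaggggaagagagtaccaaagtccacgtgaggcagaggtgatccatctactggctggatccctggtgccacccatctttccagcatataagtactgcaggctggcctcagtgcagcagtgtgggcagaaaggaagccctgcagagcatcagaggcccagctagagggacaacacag
Cyp3a2: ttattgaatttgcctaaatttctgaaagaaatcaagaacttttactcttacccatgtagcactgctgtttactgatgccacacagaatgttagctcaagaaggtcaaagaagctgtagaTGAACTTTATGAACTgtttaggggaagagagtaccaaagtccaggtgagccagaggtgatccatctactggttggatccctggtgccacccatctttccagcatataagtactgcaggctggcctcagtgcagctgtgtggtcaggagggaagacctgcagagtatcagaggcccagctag
The windows are of GRCr8, chr12:14398754-14399053 and chr12:14343808-14344107, both on the minus strand, and run from 250 bases before to 50 after the RefSeq start. They were identical at 254 of 285 aligned bases (89.1%). The match lay 144 to 130 bases before the start of Cyp3a23-3a1 and 131 to 117 before that of Cyp3a2. Both strands of all 33469 windows were searched, and these 2 windows were the only ones that held the repeat (0.00598%). Only that exact spelling was searched, so repeats spelled otherwise are not counted, and the 2 windows are much alike. Control by the receptor was not tested. Cyp3a2 stood at 2.86 ± 0.31 in the control and 3.12 ± 0.24 in the lactating liver (SD, n = 4), under the array medians, and was not called. The short core GCGTG, to which the aryl hydrocarbon receptor complex binds, was in 29.7% of all windows. It was in 8 of the 30 P450 genes matched, which had 36 windows, so that count is not a share of windows.

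**Figure D4:**
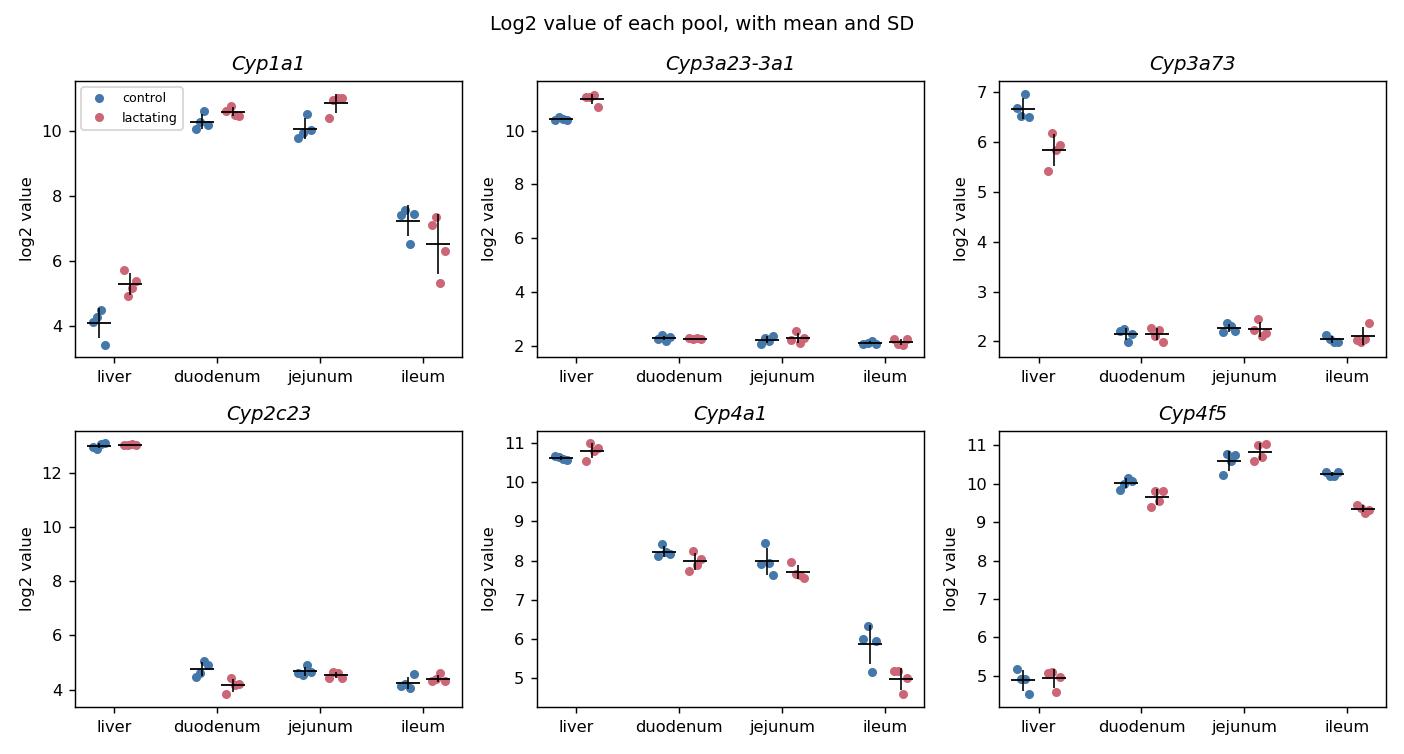
Log2 value of each pool (points) in the 4 tissues for the 6 P450 genes called in at least 1 tissue, control in blue and lactating in red, with black bars for mean ± SD. Lactating liver pools lie above control pools for Cyp1a1 and Cyp3a23-3a1 and below for Cyp3a73, and lactating ileum pools lie below for Cyp4f5.

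No other P450 gene was called in the liver. The next largest liver rise was that of Cyp2c22, from 11.64, 11.91, 12.03 and 12.03 in control pools 1 to 4 to 12.41, 12.31, 12.26 and 12.40 in lactating pools. Its pools did not overlap, but the difference of 0.44 ± 0.21 was not called (adjusted p = 0.388). The SD was 0.19 in control and 0.07 in lactating liver pools, against 0.55 and 0.36 in the ileum, where the gene was dim. That SE shares both. Cyp2e1 lay lower in every lactating pool (12.78 to 12.99) than in every control pool (13.01 to 13.30), with a difference of -0.22 ± 0.12 that was not called (adjusted p = 0.484). Cyp2t1 differed by -0.33 ± 0.15 (adjusted p = 0.36). Cyp4a1 differed by 0.19 ± 0.18 in the liver and Cyp2c23 by 0.03 ± 0.12.

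In the duodenum the call was Cyp2c23. Control pools 1 to 4 stood at 4.48, 4.61, 5.05 and 4.90 and lactating pools at 3.83, 4.43, 4.16 and 4.21, so that all lactating pools lay below all control pools. All of the lactating pools and control pools 1 and 2 lay under the array medians. The gene fell by 0.60 ± 0.12, a 1.52-fold fall (adjusted p = 0.00939), and its effect differed between tissues (adjusted p = 0.0212). The 8 pancreatic acinar markers were all called lower in the lactating duodenum, by 3.50 to 5.18, and their summed log2 level ran from 14.07 to 15.22 in control and from 8.56 to 13.20 in lactating pools. The smooth muscle marker Myh11 differed by -0.45 in this segment, with all lactating pools below the control pools, and was called in the blocked fit (adjusted p = 0.0768 without the block and 0.0212 with it). The part of either in the Cyp2c23 result was not tested. The call was lost without control pool 3 or 4 (adjusted p = 0.0632 and 0.0537), without lactating pool 1 or 3 (0.099 and 0.0575), without both pools numbered 4 (0.129) and in a fit to the duodenum arrays alone (0.333). The difference between tissues was lost without control pool 2 or 3 (0.0765 and 0.115) and without lactating pool 1, 3 or 4 (0.109, 0.136 and 0.0756), without both pools numbered 4 (0.13) and without the pool block (0.0778). Among the members not called, Cyp4f5 differed by -0.37 ± 0.14 and Cyp3a18 by -0.36 ± 0.17, each with all lactating pools below the control pools, and Cyp2t1 by 0.34 ± 0.15, Cyp1a1 by 0.30 ± 0.32 and Cyp2c11 by 0.26 ± 0.15.

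In the jejunum limma called 0 of the 34 genes, as did the study's mixed model. With the replicate number in the model, 1 member was called (2.94% against 2.1% of all clusters). This was Cyp2u1, a fatty acid hydroxylase, at 6.89, 7.51, 6.80 and 6.59 in control pools 1 to 4 and at 6.54, 6.56, 6.40 and 6.29 in lactating pools. The pools did not overlap, but by a narrow margin. Its difference was -0.50 ± 0.15, with an adjusted p of 0.133 without that term and 0.0222 with it. Without control pool 2 it was -0.31 (adjusted p = 0.57). Cyp2d2 stood lower in all lactating pools (8.16 to 8.54) than in all control pools (8.70 to 8.99), a difference of -0.52 ± 0.20 that was not called (adjusted p = 0.296). Cyp3a18 did so too (10.96 to 11.32 against 11.45 to 11.57), with -0.43 ± 0.17 and an adjusted p of 0.334. The largest differences upward, none called, were 0.78 ± 0.32 for Cyp1a1, 0.38 ± 0.13 for Cyp1a2 and 0.30 ± 0.14 for Cyp2d3. The adipocyte markers Adipoq and Lpl fell by 2.94 and 1.28 in the same segment, and none of the other 5 measured was called. The summed level of the 7 was 10.75 to 11.05 in control and 10.92 to 11.11 in lactating pools, but it was carried by Cidec, with means of 10.61 and 10.88. The part of these markers in the P450 values was not tested.

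In the ileum 2 family 4 genes fell. Cyp4f5 stood at 10.32, 10.21, 10.21 and 10.29 in control pools 1 to 4 and at 9.45, 9.38, 9.23 and 9.32 in lactating pools. The groups lay far apart and each was tight, and the gene fell by 0.91 ± 0.14, a 1.88-fold fall (adjusted p = 0.000596). In the jejunum its difference was 0.25 ± 0.14 and in the liver 0.05 ± 0.14. In the duodenum it was -0.37 ± 0.14, not called, with all lactating pools below the control pools. The effect differed between tissues (adjusted p = 0.00107). This call held when any 1 pool was left out and in a fit to the ileum arrays alone (adjusted p = 0.0164). Cyp4a1 stood at 6.01, 6.33, 5.17 and 5.96 in control pools and at 5.18, 5.18, 4.59 and 5.01 in lactating pools, where control pool 3 overlapped the lactating pools. It fell by 0.88 ± 0.18, a 1.84-fold fall (adjusted p = 0.0098). The signal was dim, with means of 5.87 in control and 4.99 in lactating pools, both under 6. Lactating pool 3 lay under the array medians. The call was lost without control pool 1 or 2 (adjusted p = 0.0698 and 0.0774), without lactating pool 3 or 4 (0.122 and 0.0513), without both pools numbered 4 (0.132) and in a fit to the ileum arrays alone (0.223). Its effect was not called as differing between tissues (adjusted p = 0.0618), but was called in the fit blocked on the replicate number (0.0431). The enterocyte marker Lct in the ileum (-1.76, adjusted p = 0.107 without the block and 0.0352 with it) and the T cell marker Cd8b in the jejunum (-0.47, 0.106 and 0.0212) were likewise called only in that fit, and their part in these results was not tested.

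Taking the replicate number as a term, 4 members were called in the ileum (11.8% against 3.78% of all clusters), all lower (2.19% of all clusters). The 2 added were Cyp2j4, at 11.23, 11.32, 10.82 and 11.31 in control and 10.67, 11.07, 10.58 and 10.00 in lactating pools, and Cyp4f1, at 11.08, 11.27, 10.66 and 11.07 in control and 10.78, 10.95, 10.17 and 10.29 in lactating pools. Both sets of pools overlapped. The differences were -0.59 ± 0.15 for Cyp2j4 (adjusted p = 0.0539 without that term, 0.0158 with it) and -0.47 ± 0.14 for Cyp4f1 (0.0876 and 0.0279). Without control pool 3 limma called 5 members in the ileum (202 of all clusters) and without lactating pool 2 it called 4 (215 of all clusters). Both sets held Cyp2j4 (adjusted p = 0.0388 and 0.0105) and Cyp4f1 (0.0417 and 0.031). The count was 1 without control pool 1 or 2 (136 and 114 of all clusters) or lactating pool 3 or 4 (101 and 120). With all pools, 249 of all clusters were called. Cyp1a1 also had its largest fall here, with 7.43, 7.58, 6.53 and 7.43 in control and 7.11, 7.35, 5.34 and 6.30 in lactating pools. The groups overlapped widely and the difference was not called. Upward, the largest differences were 0.38 ± 0.22 for Cyp2r1, 0.17 ± 0.15 for Cyp4f4 and 0.16 ± 0.11 for Cyp2c23, none called.

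Averaged over the 4 tissues, the effect of physiologic state was called for 0 of the 34 genes by limma (2.51% of all clusters) and by the study's mixed model. With the replicate number in the model 9 members were called (26.5% against 17.5% of all clusters), 1 higher and 8 lower (9.31% and 8.23% of all clusters). Cyp3a23-3a1 was the higher, by 0.21 ± 0.06 (adjusted p = 0.0014 with the replicate number and 0.0597 without). The lower ones were Cyp2d2, Cyp2j4, Cyp2u1, Cyp3a18, Cyp3a73, Cyp4a1, Cyp4f1 and Cyp4f5, by 0.19 to 0.32. In the fit with the replicate number, the correlation within pools was -0.044, so the 4 tissues of a pool counted almost as separate samples. That fit called 3409 clusters in the mean, against 14 in the study's mixed model, which sets state against the spread between pools. These 9 calls therefore count the tissues of a pool nearly as separate samples, and the study's mixed model called 0 of them. The F test of the difference between tissues called 5 members, 14.7% against 2.05% of all clusters. These were Cyp1a1, Cyp2c23, Cyp3a23-3a1, Cyp3a73 and Cyp4f5, of which Cyp3a23-3a1 and Cyp3a73 had signal in the liver alone, so that their calls repeat the liver result. With the replicate number as a term it also called 5 (2.36% of all clusters), with Cyp4a1 in place of Cyp1a1. Without control pool 2, lactating pool 3 or lactating pool 4 it called 3 (233, 223 and 264 of all clusters, against 399). Without lactating pool 2 or 4, the mean over tissues was called for 1 member (338 and 731 of all clusters, against 488).

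None of the 7 partner genes, P450 oxidoreductase (Por) among them, was called in any tissue. Por differed by 0.20 ± 0.12 in the liver and -0.23 ± 0.12 in the ileum. In the blocked fit Pgrmc2, a haem-binding partner, was called higher in the duodenum (0.59 ± 0.18, adjusted p = 0.000826) and in the jejunum (0.46 ± 0.18, adjusted p = 0.00946). None of the 5 haem synthesis genes measured was called in a tissue. Of the 4 haem breakdown genes, Hmox1, which opens the haem ring, stood at 6.76, 7.27, 7.27 and 6.27 in control duodenum pools 1 to 4 and at 8.15, 8.65, 8.29 and 8.12 in lactating pools. It rose by 1.41 ± 0.19 there and by 1.51 ± 0.19 in the jejunum, with no overlap of pools in either segment, and differed by -0.10 ± 0.19 in the liver.

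Of 24 transcription factors and coregulators of P450 genes, limma called 1 higher and 3 lower in the liver and 1 lower in the ileum. In the liver Foxa3, a forkhead factor of hepatocytes, rose by 0.70 ± 0.16 (adjusted p = 0.018). Cux2, a repressor that is female-predominant in rodent liver, fell by 0.59 ± 0.11 (adjusted p = 0.00321), Stat5b, the relay of growth hormone signals, by 0.45 ± 0.11 (adjusted p = 0.0322) and Nr3c1, the glucocorticoid receptor, by 0.45 ± 0.12 (adjusted p = 0.0423). Ahr differed by -0.35 ± 0.13 in the liver, where Cyp1a1 was higher, and was called only in the blocked fit (adjusted p = 0.194 without the block and 0.0356 with it), as was its partner Arnt (-0.33 ± 0.12, adjusted p = 0.216 and 0.0329). Nr1i2, the pregnane X receptor, differed there by -0.02 ± 0.13. In the ileum Ppargc1a, a coactivator of nuclear receptors, stood at 6.88, 7.58, 6.61 and 6.94 in control and at 5.55, 6.02, 5.47 and 5.38 in lactating pools and fell by 1.40 ± 0.19 (adjusted p = 6.81e-05). In the blocked fit Nr1i2 (-0.48 ± 0.13) and Nr1i3 (-0.94 ± 0.25), the constitutive androstane receptor, were also called there (adjusted p = 0.00891 and 0.00351, against 0.0711 and 0.0626 without).

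None of the 4 measured Ahr targets outside the P450 families was called in a tissue, and Nqo1, a quinone reductase, differed by -0.04 ± 0.14 in the liver. Of 10 measured Ppara targets outside the families, 2 were called, both lower in the liver. Cpt1a, the entry step of fatty acids into mitochondria, fell by 0.91 ± 0.13, and Pdk4, which restrains glucose oxidation, by 0.94 ± 0.25 (adjusted p = 0.0428). In the ileum, where Cyp4a1 fell, none of the 10 was called, and their differences ran from -0.74 for Pdk4 to 0.32. Pdk4 had means of 6.64 in control and 5.89 in lactating ileum pools. Averaged over the 4 tissues it was called lower, by 0.79, and the study lists it as lower in all 4. In the blocked fit Fabp1, a fatty acid binding protein, was called higher in the ileum (0.30 ± 0.12, adjusted p = 0.282 without the block and 0.0294 with it). The block also added a fall of Pdk4 in the duodenum (-0.85 ± 0.25, adjusted p = 0.156 and 0.0413).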

How the data were processed

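The study measured total RNA of liver, duodenum, jejunum and ileum on the Affymetrix Rat Exon 1.0 ST array, 32 arrays in 8 groups. The deposited values are log2 signals that the authors obtained by RMA in Expression Console, after background correction and quantile normalization over the arrays, with 1 summary per transcript cluster. Quantile normalization removes any shift shared by all genes. Versions: not given in the sources used here. Where probes match close relatives, a value may hold both. The 19434 clusters and all arrays were used as deposited. The number of arrays and signal over background limit the precision.

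Clusters were named where the probe table gives exactly 1 symbol (13335 clusters). Of the rest, 612 have several symbols and 5487 none. The limma 3.58.1 model (R 4.3.3, statmod 1.5.0) held 8 group means, and pools entered as a random block with a consensus correlation of 0.163. P-values were adjusted by Benjamini-Hochberg. The step was tested on simulated data. Tables, promoter searches and figures used Python 3.11.15, pandas 2.3.3, scipy 1.17.1, Biopython 1.88 and matplotlib 3.10.9, with promoter sequences from RefSeq on GRCr8. The array annotation is of rn4, so no RefSeq coordinate is given for a cluster.

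Same-numbered control and lactating pools correlated at 0.105 to 0.555 in their deviations from group means, and others at -0.347 to 0.104. The values for numbers 1 to 4 were 0.344, 0.154, 0.105 and 0.555, and every negative value involved a pool numbered 4. The likeness was thus clearest for number 4, and these values do not settle whether all 4 numbers are pairs. The main fit leaves the replicate number out, and the blocked value stands beside results it changes. The first principal component (30.1%) set the 8 arrays numbered 4 apart. Nothing given here says how the same numbers arose.

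Members, 12 gene lists, tests and alternatives were chosen with earlier results of these data known. Members named are those called in a tissue, with or without the replicate number, the 3 largest rises and falls in each tissue, the 5 largest and smallest liver minus intestine differences, the largest called differences between segments, Cyp1a1 and Cyp3a23-3a1, and list genes called. Other members are named in counts or beside these, after their values were seen. Alternatives were other models, filters, normalization within tissues and leaving out pools.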

Additional observations from a re-analysis of the deposited data

Results flagged for a closer look

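The effect of lactation differed between tissues, by limma's F test, for 5 of the 25 named genes. The adjusted p was 0.0323 for Cyp1a1, 0.0212 for Cyp2c23, 0.000678 for Cyp3a23-3a1, 0.00359 for Cyp3a73 and 0.00107 for Cyp4f5. Cyp3a23-3a1 and Cyp3a73 lay under 3 in every intestinal array, where no effect could be measured, so their values follow from the liver call.

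A pool stood far from the other 3 of its group in 11 of 200 groups of a gene, tissue and state, by the gap to the nearest pool over the range of the group. Chance gives about 1 in 20. For Cyp1a1, lactating jejunum pool 1 stood at 10.4 and the others at 10.94 to 11.02, and control ileum pool 3 at 6.53 and the others at 7.43 to 7.58. Cyp1b1 stood at 3.3 in control jejunum pool 3 against 3.52 to 3.54. Cyp2c11 stood at 2.63 in lactating ileum pool 2 against 2.51 to 2.52. Cyp2c22 stood at 2.64 in lactating duodenum pool 3 against 3.11 to 3.16. Cyp2d3 stood at 4.4 in control duodenum pool 4 against 4.80 to 4.84. Cyp2d4 stood at 10.17 in control ileum pool 2 against 10.02 to 10.03. Cyp2u1 stood at 6.74 in lactating duodenum pool 2 against 6.13 to 6.20. Cyp3a73 stood at 2.37 in lactating ileum pool 4 against 1.98 to 2.05. Cyp4f4 stood at 10.31 in control liver pool 4 against 10.58 to 10.63, and at 3.18 in lactating duodenum pool 3 against 3.33 to 3.34.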

How the results depend on the processing

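With the replicate block, 1 member was called in the jejunum instead of 0, 4 in the ileum instead of 2 and 9 in the mean over tissues instead of 0, and Cyp2t1 was added between control jejunum and ileum. Beyond the changes given above, the block changed no call of a P450 gene. Over all clusters the block called 803, 361, 409 and 735 in liver, duodenum, jejunum and ileum, against 366, 125, 157 and 249 without it, and 3409 against 488 in the mean over tissues. A fit to each tissue alone called 0 in the liver instead of 3, 0 in the duodenum instead of 1 and 1 in the ileum, and 43, 29, 25 and 15 clusters in the 4 tissues. Quantile normalization within tissues called 4 in the ileum, and 295 of all clusters. Without the pool block 6 were called in the mean over tissues and 3 instead of 5 as differing between tissues (235 of all clusters). Array weights gave 3 in the mean. The mean was called for 1423 clusters without the pool block, 978 with array weights, 157 among those with a group mean of 6 or more and 14 in the study's mixed model. With 1 pool or both pools numbered 4 left out, the counts ran from 2 to 3 in the liver, 0 to 1 in the duodenum, 1 to 5 in the ileum, 0 to 1 in the mean, 3 to 6 differing between tissues, and 2 to 8 between control duodenum and jejunum. The counts over all clusters, and so the shares set beside the members, then ran from 211 to 525 in the liver, 76 to 130 in the duodenum, 69 to 162 in the jejunum, 84 to 246 in the ileum, 146 to 731 in the mean, 176 to 401 differing between tissues and 1585 to 2534 between control duodenum and jejunum. The causes were not tested. No direction of a called difference turned in any setting. No gene had several clusters, so a mean over clusters was not run.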
